A study of Homo sapiens with 2 samples.

Results

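The genes described here are 6 genes of myeloid host defence: the surface receptors CD14, CXCR4, FCAR and FCGR1A, CYBB of the phagocyte oxidase and the gasdermin gene GSDMD. They were chosen by name because the deposited tables list them, and they are 6 of the 5851 gene symbols in the 3 tables. All 6 occurred in the GO table, 5 of them also in the KEGG table (all but GSDMD), and 1, FCAR, also in a table of RNA-binding protein families. Because listing was the reason for choosing them, their listing is a description and carries no test. Over all protein-coding genes of the RefSeq table (GRCh38.p14), 26.9% were named in at least 1 of the tables.

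HL-60, the cell line used, is a human leukaemia line at the promyelocyte stage and resembles an early stage of the neutrophil lineage. RNA pulled down with an antibody to ALKBH5, the demethylase of N6-methyladenosine (m6A, a common mark of mRNA), was sequenced along with RNA of the unselected lysate, with 1 input library and 1 immunoprecipitate (IP) library; the lysate part incubated with rabbit IgG was not analysed here. Both libraries carry the same cell line and the same genotype label, ALKBH5, and no treatment or time point. Title and library name disagree for both libraries on which is input and which is IP. The library names were followed, and no value below was computed from this grouping. Which library the authors took as IP for their peaks was not checked here. The tables list the genes that the authors' annotation of peaks placed in each Gene Ontology (GO) term or KEGG pathway, with no level per gene, no value per library and no read depth, so a gene is described as listed or not listed. A term was seen only where its deposited p-value was under 0.05 (the highest was 0.0497), so a gene that is not listed can still carry a peak.

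Neutrophils and monocytes sense microbes through surface receptors, engulf antibody-coated particles through receptors for the constant (Fc) part of antibodies, and kill what they engulf with reactive oxygen made in the phagosome. CD14 is a co-receptor that hands bacterial lipopolysaccharide to Toll-like receptors. CXCR4 is the receptor for the chemokine CXCL12 and holds myeloid precursors in the bone marrow. FCAR binds IgA, and FCGR1A binds IgG with high affinity. CYBB is the catalytic subunit of the phagocyte NADPH oxidase, and GSDMD is the gasdermin that forms membrane pores after inflammatory caspases cut it.

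Each of the 6 was entered under 1 gene identifier, which was the identifier RefSeq gives it. CD14 (identifier 929) lies on chromosome 5 from 140631732 to 140633701 (GRCh38.p14). CXCR4 (7852) lies on chromosome 2 from 136114349 to 136118149. FCAR (2204) lies on chromosome 19 from 54874235 to 54891420. FCGR1A (2209) lies on chromosome 1 from 149782694 to 149800609. CYBB (1536) lies on chromosome X from 37780059 to 37813461. GSDMD (79792) lies on chromosome 8 from 143553387 to 143563062. The 6 are short genes among those listed: their genomic lengths, introns included, ran from 1.97 kb for CD14 to 33.4 kb for CYBB, and all 6 were under the median of 35.4 kb over the 5403 listed protein-coding genes. CD14 was longer than 0.944% of those listed genes and CXCR4 (3.80 kb) longer than 3.63% of them. GSDMD (9.68 kb) was longer than 14.3%, FCAR (17.2 kb) than 27.7% and FCGR1A (17.9 kb) than 29.0%. CYBB stood close to the middle, at 48.3%. The median of the 6 (13.4 kb) was also under the 20.1 kb median of unlisted protein-coding genes.

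The 6 genes were named 32 times in all, by 22 different terms, 15 of GO and 7 of KEGG. CXCR4 was named by 9 terms, CD14 by 8, CYBB by 5, FCGR1A and GSDMD by 4 each and FCAR by 2. The median over all 5614 symbols of the GO and KEGG tables was 4 terms. CXCR4 had more terms than 79.1% of these symbols, CD14 than 73.8%, CYBB than 50.8%, FCGR1A and GSDMD than 40.0% each, and FCAR than 13.9%. The number of terms reflects how much is annotated to a gene as well as which terms reached the authors' limit, and it is no measure of bound RNA.

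**Figure D1:**
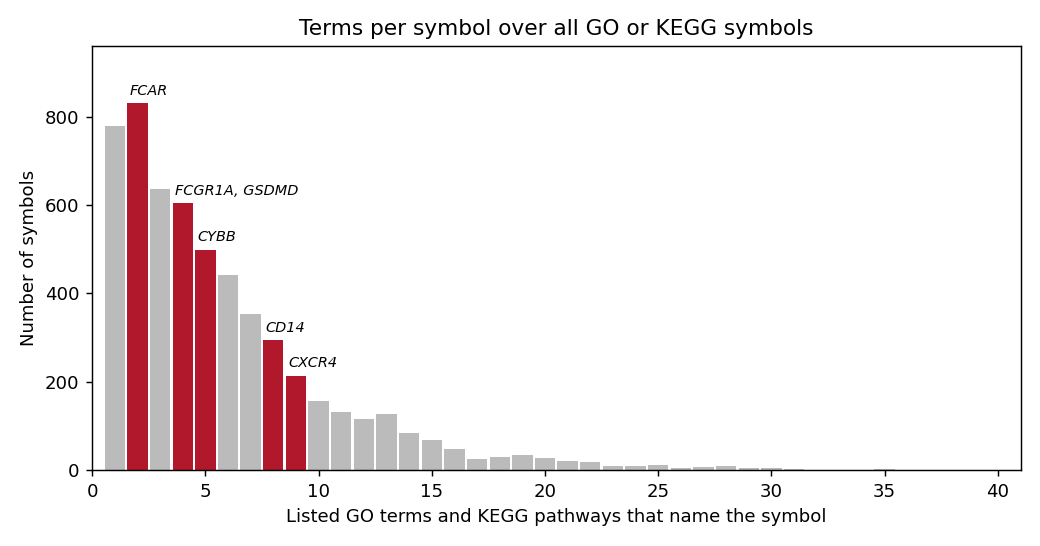
Number of GO and KEGG symbols (vertical axis) by the number of listed terms that name them (horizontal axis), with the bars that hold the 6 genes in red and named. FCAR lies below the median of 4 terms, FCGR1A and GSDMD on it, and CYBB, CD14 and CXCR4 above it.

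A pair of terms held most of the genes together. Neutrophil degranulation, the GO process of releasing granule contents, named CD14, FCAR, CYBB and GSDMD. Phagosome, the KEGG pathway of engulfed particles and their killing, named CD14, FCAR, FCGR1A and CYBB. CD14, FCAR and CYBB were among the 21 of the 5614 symbols (0.374%) in both terms, while 5.29% of symbols stood in at least 1 of them. The 6 genes were chosen by name from these tables as genes of myeloid host defence. Their place in such terms therefore follows in part from the choice, and the shares carry no test. The other 18 symbols in both included the integrin chains ITGAM and ITGB2, TLR2, the granule enzyme MPO, the complement component C3 and the proton pump subunits ATP6V0A1 and TCIRG1. CXCR4 was in neither. Of the 15 pairs that the 6 genes form, 10 shared at least 1 term and none shared more than 2. The 5 pairs with no shared term were CXCR4 with CD14, FCAR, FCGR1A and CYBB, and FCGR1A with GSDMD.

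**Figure D2:**
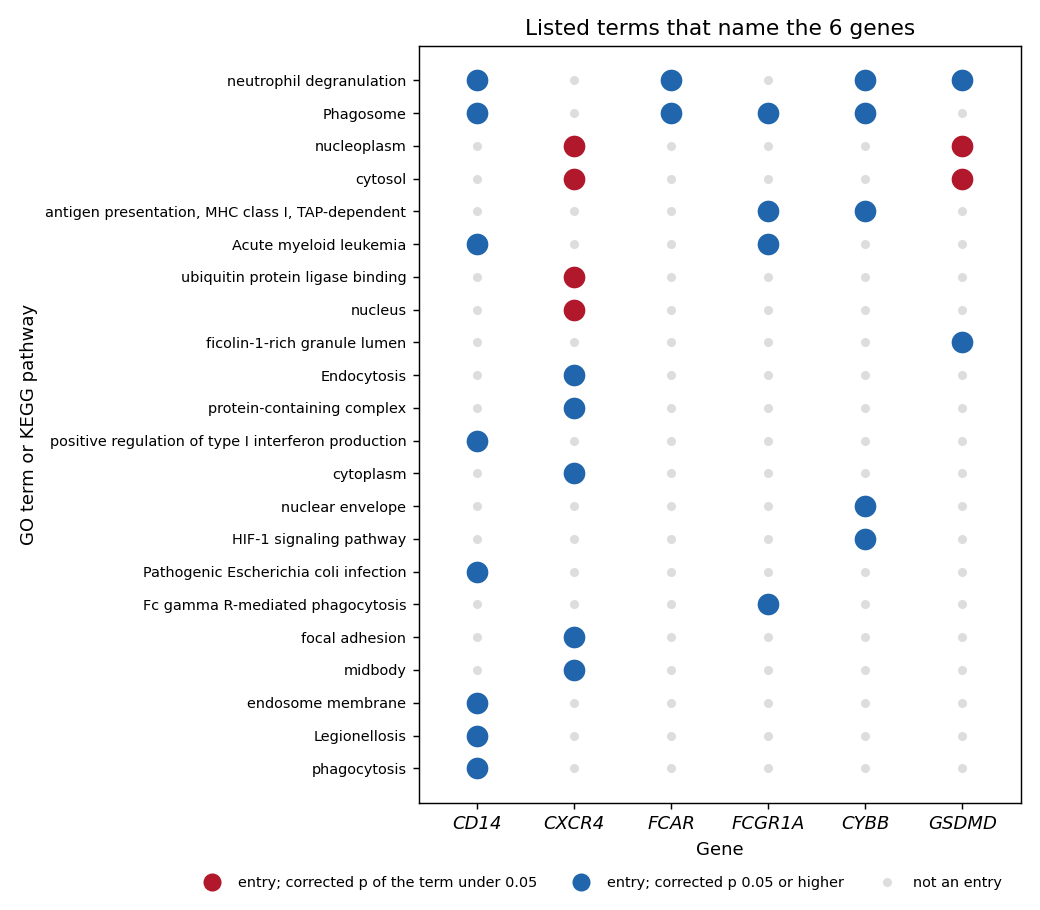
Terms (vertical axis) that name each of the 6 genes (horizontal axis); large dots are entries, red where the corrected p of the term in the authors' deposited table was under 0.05 and blue where it was not, and small grey dots are terms without that gene. Neutrophil degranulation and Phagosome each hold 4 of the 6 genes, and red dots occur for CXCR4 and GSDMD.

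Both shared terms had a corrected p above 0.05. In the authors' deposited table neutrophil degranulation had 237 entries on 482 background genes, a rich factor of 1.48 and 0.412 as corrected p. The rich factor is a fold, the authors' ratio of shares, and its reference share was not worked out here. Phagosome had 81 entries on 152 background genes, a rich factor of 1.60 and 0.218 as corrected p per the authors' deposited table. Several entries of a term can carry the same gene identifier, so entries can overstate the genes. Some shared identifiers join different genes, such as ACTB with ACTG1 in Phagosome, so identifiers can also understate them. The 237 entries stood on 222 identifiers (46.1% of the background genes, 95% exact Clopper-Pearson interval 41.5 to 50.6%) and the 81 on 70 (46.1%, 37.9 to 54.3%). These intervals cover counting error only.

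Of the 22 terms that name any of the 6 genes, 4 had a corrected p under 0.05 in the authors' deposited table (18.2%). Over all 349 listed terms the share was 11.5%, with 12.2% among GO terms and 5.26% among KEGG pathways. All 4 named CXCR4, 2 of them also named GSDMD, and CD14, FCAR, FCGR1A and CYBB were in no term under 0.05. Over all GO and KEGG symbols 88.1% were in at least 1 such term. Counted by distinct identifier, the 22 terms had a median of 49.4% of their background genes listed, with a range from 39.4% for cytoplasm to 69.2% for positive regulation of type I interferon production. The median over all 349 listed terms was 61.5%. The median deposited rich factor was 1.62 for the 22 terms and 2.01 for all listed terms, both from the authors' deposited table. Terms were seen only at a p-value under 0.05, which a wide term can reach at a lower share than a narrow one. These medians therefore depend on term size too, and their difference was not tested.

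**Figure D3:**
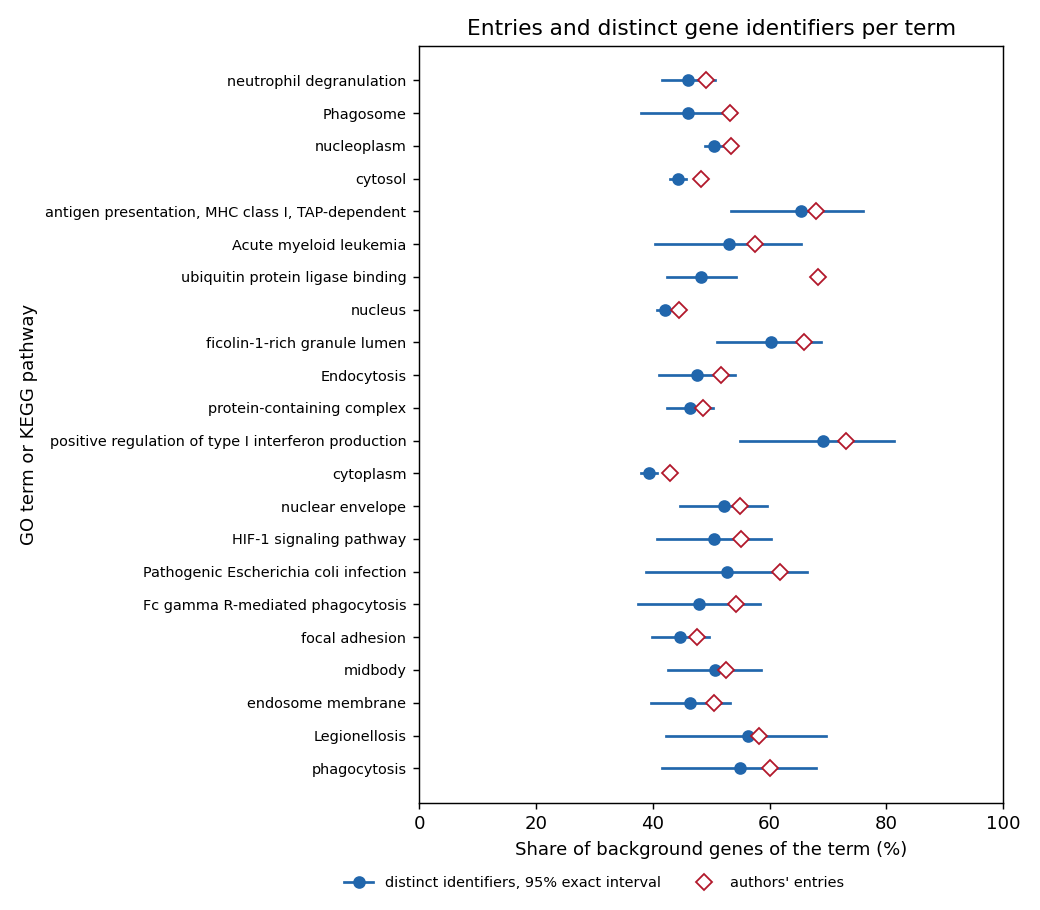
Share of each term's background genes (horizontal axis, percent) for the 22 terms that name any of the 6 genes (vertical axis), as the authors' entries (red diamonds) and as distinct gene identifiers (blue dots, with 95% exact intervals). Ubiquitin protein ligase binding has the widest gap, from 68.4% by entries to 48.3% by identifier.

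CD14, the lipopolysaccharide co-receptor, was the gene with most pathways of infection. Its 4 KEGG pathways were Phagosome, Pathogenic Escherichia coli infection, Legionellosis and Acute myeloid leukemia, and its 4 GO terms were neutrophil degranulation, phagocytosis, endosome membrane and positive regulation of type I interferon production. The interferon term had 38 entries on 52 background genes and 0.314 as corrected p per the authors' deposited table, with 36 distinct identifiers (69.2%, 95% interval 54.9 to 81.3%). Pathogenic Escherichia coli infection had 34 entries on 55 genes (corrected p 0.268) and Legionellosis 32 on 55 (0.334) in the authors' deposited table. These stood on 29 and 31 identifiers. Phagocytosis, with 36 entries on 60 genes, reached 0.972 as corrected p per the authors' deposited table, the highest among the terms of the 6 genes, and endosome membrane (111 on 220) had 0.901.

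Other genes of lipopolysaccharide sensing were listed in part. Of the 18 genes of the lipopolysaccharide and Toll-like receptor list, 6 were listed (33.3%, 95% interval 13.3 to 59.0%): CD14, the receptors TLR2, TLR8 and TLR9, and the kinases IRAK1 and IRAK2, which carry the signal of these receptors. Without CD14 the count was 5 of 17 (29.4%), beside 26.9% of all protein-coding genes. TLR4 and LY96, the receptor complex to which CD14 hands lipopolysaccharide, and the adaptor MYD88 were not listed. TICAM2, another adaptor of TLR4, was absent by symbol, but its identifier 353376 was entered under TMED7-TICAM2, a readthrough transcript. TLR2 shared 4 terms with the 6 genes: Legionellosis, Phagosome, cytoplasm and neutrophil degranulation.

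FCAR, the IgA receptor, had the fewest terms of the 6, neutrophil degranulation and Phagosome. It was the only one of the 6 in the family table, where it was paired with all 4 families: RRM, CSD, PUF and one that joins RRM with the CCHC zinc finger. Of the 5851 listed symbols 23.0% were in the family table, and 14.3% (838) were paired with all 4 families. Among the entries of FCAR's terms, 31 of the 237 of neutrophil degranulation (13.1%) and 8 of the 81 of Phagosome (9.88%) were in that table. The 5851 include symbols named in the family table alone, which entries of a term cannot be, so these shares have unlike bases. Pairing describes the table only; how it was made is not given in the sources used here, and it does not make FCAR an RNA-binding protein.

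FCGR1A, the high-affinity IgG receptor, was in 3 KEGG pathways, Phagosome, Acute myeloid leukemia and Fc gamma R-mediated phagocytosis, and in 1 GO process, TAP-dependent presentation of exogenous peptide by class I major histocompatibility molecules. Fc gamma R-mediated phagocytosis had 51 entries on 94 background genes, a rich factor of 1.63 and 0.288 as corrected p per the authors' deposited table. Acute myeloid leukemia had 38 entries on 66 genes and 0.288 as corrected p per the authors' deposited table. The antigen presentation term had 51 entries on 75 genes, a rich factor of 2.04 and 0.261 as corrected p per the authors' deposited table. The entries of these terms stood on 45 (47.9%), 35 (53.0%) and 49 (65.3%) identifiers.

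FCGR1A was the only one of the 6 whose identifier was also carried by a second symbol. FCGR1B was entered under the same identifier, 2209, in all 4 terms, so each of these terms held 2 entries on that identifier. RefSeq gives the FCGR1B locus an identifier of its own, 2210, and names it FCGR1BP, a transcribed pseudogene on chromosome 1 from 121087345 to 121097161 (GRCh38.p14). The 2 loci are near-identical copies, so reads and peaks may be split between them, and the listing of either is uncertain. Sharing of an identifier was uncommon: 291 of the 5237 identifiers (5.56%) carried more than 1 symbol, 274 of them exactly 2.

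Among Fc receptors and their kinases 6 of 15 genes were listed (40.0%, 95% interval 16.3 to 67.7%), and without FCAR and FCGR1A 4 of 13 (30.8%), near the 26.9% of all protein-coding genes. The listed genes beside the receptors included the Src-family kinase FGR, the phospholipase PLCG2 and the exchange factor VAV1. PLCG2 and VAV1 stood with FCGR1A in Fc gamma R-mediated phagocytosis. The low-affinity IgG receptors FCGR2A, FCGR2B, FCGR2C, FCGR3A and FCGR3B, the shared signalling chain FCER1G, and the kinases SYK and LYN were not listed.

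CYBB was in 2 KEGG pathways and 3 GO terms. Beside the terms above these were HIF-1 signaling pathway, with 60 entries on 109 background genes and 0.26 as corrected p per the authors' deposited table, and nuclear envelope, with 100 on 182 and 0.479 there. CYBB and FCGR1A shared the antigen presentation term and Phagosome. HIF-1 signaling pathway held 55 distinct identifiers (50.5%, 95% interval 40.7 to 60.2%) and nuclear envelope 95 (52.2%, 44.7 to 59.6%).

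Of the 15 genes of the NADPH oxidase list 4 were listed (26.7%, 95% interval 7.79 to 55.1%), among them CYBB and the subunits NCF1 and NCF4, which join it when the oxidase is switched on. Both subunits stood with CYBB in Phagosome and in the antigen presentation term. CYBA, the membrane partner of CYBB, CYBC1, its chaperone, and the GTPases RAC1, RAC2 and RAP1A were not listed, nor were NOX1, NOX3, NOX4, NOX5, DUOX1 and DUOX2, the oxidases of other tissues. Without CYBB the count was 3 of 14 (21.4%), beside 26.9% of all protein-coding genes. NCF1 also has near-identical pseudogene copies, so its listing is uncertain in the same way as that of FCGR1A.

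CXCR4 had a different set of terms from the other receptors. A total of 7 of its 9 terms were GO compartments: nucleoplasm, cytosol, nucleus, cytoplasm, protein-containing complex, focal adhesion and midbody. The remaining terms were the GO function ubiquitin protein ligase binding and the KEGG pathway Endocytosis. Nucleoplasm had 1939 entries on 3630 background genes (corrected p 3.05e-20) and cytosol 2462 on 5095 (5.90e-11) in the authors' deposited table. Nucleus had 2319 entries on 5208 genes and 0.00503 as corrected p per the authors' deposited table. These compartments are wide, and the median background of CXCR4's terms was 623 genes. It was lower for CD14 (63), FCGR1A (84.5), CYBB (152) and FCAR (317), and higher for GSDMD (2056). Focal adhesion (199 entries on 418 genes, corrected p 0.864) and midbody (84 on 160, 0.882) were narrower in the authors' deposited table. Protein-containing complex (303 entries on 623 genes, corrected p 0.305) and cytoplasm (1983 on 4624, 0.451) did not reach 0.05 in the authors' deposited table either.

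Ubiquitin protein ligase binding was the narrowest term under 0.05 that named any of the 6. For this term the authors' deposited table showed 201 entries, 294 background genes, a rich factor of 2.05 and 4.93e-06 as corrected p. Its entries stood on 142 identifiers, since 51 of them carried the identifier of AMBRA1, an autophagy regulator, and further identifiers were repeated, such as those of HSPA1A with HSPA1B and of ACTB with ACTG1. The share was 68.4% by entries and 48.3% by identifier (95% interval 42.5 to 54.2%). Endocytosis, the pathway by which the receptor is taken up from the surface, had 126 entries on 244 genes and 0.127 as corrected p per the authors' deposited table, with 116 identifiers (47.5%, 41.1 to 54.0%).

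Of the 21 genes of the chemoattractant receptor list 7 were listed (33.3%, 95% interval 14.6 to 57.0%), and without CXCR4 6 of 20 (30.0%), near the 26.9% of all protein-coding genes. They were the arrestins ARRB1 and ARRB2 and the receptor kinases GRK2 and GRK6, which switch off and internalise such receptors, and the chemokine receptors CCR2 and CXCR3. ARRB1, ARRB2, GRK2 and GRK6 all stood with CXCR4 in Endocytosis, and both arrestins also in ubiquitin protein ligase binding. CXCL12, the ligand of CXCR4, and ACKR3, the other receptor of that ligand, were not listed. Receptors typical of mature neutrophils, CXCR1, CXCR2, FPR1, FPR2 and C5AR1, were not listed either.

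GSDMD was named by GO alone, in neutrophil degranulation, ficolin-1-rich granule lumen, nucleoplasm and cytosol. Ficolin-1-rich granules are a class of neutrophil granules. Their lumen had 81 entries on 123 background genes, a rich factor of 1.98 and 0.0767 as corrected p per the authors' deposited table. Its entries stood on 74 identifiers (60.2%, 95% interval 50.9 to 68.9%). Both terms under 0.05 that named GSDMD, nucleoplasm and cytosol, also named CXCR4.

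Of the 19 genes of the gasdermin and inflammasome list 10 were listed (52.6%, 95% interval 28.9 to 75.6%), and without GSDMD 9 of 18 (50.0%). The share of all protein-coding genes was 26.9%, and no test was made, since the list was chosen with results known. The gasdermins GSDMB and GSDME were listed, the latter under its older symbol DFNA5, and both stood with GSDMD in cytosol. The inflammasome sensors NLRP1, NLRP3, NLRC4 and MEFV, the caspases CASP1 and CASP8, and the cytokine IL1B were also listed. CASP1 cuts both GSDMD and the precursor of IL1B. CASP4 and CASP5, the caspases that cut GSDMD after sensing lipopolysaccharide in the cytosol, were not listed, nor were the adaptor PYCARD, the sensor AIM2, the cytokine IL18 or NINJ1, which ruptures the membrane after pore formation. CASP1, CASP8, IL1B and NLRC4 stood with CD14 in Legionellosis. NLRP1 and NLRC4 were the genes of this list in the family table, each paired with 3 families.

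**Figure D4:**
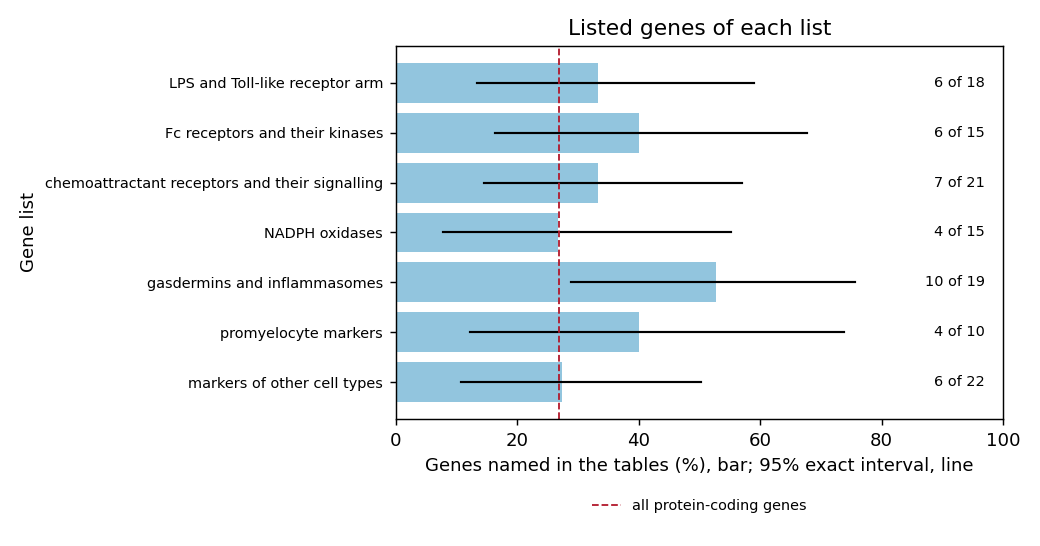
Percentage of the genes of each list that the tables name (bars, with 95% exact intervals as lines and the counts at the right), beside the 26.9% of all protein-coding genes (dashed line). The gasdermin and inflammasome list stands highest, at 10 of 19 genes, and the NADPH oxidase list lowest, at 4 of 15. Bars and intervals count the 6 genes, which were chosen because they are listed. Without GSDMD and CYBB these lists stand at 9 of 18 and 3 of 14 genes.

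Genes chosen as markers of the labelled cell type were listed in part. Of 10 genes chosen as promyelocyte markers, 4 were listed (40.0%, 95% interval 12.2 to 73.8%). They were the granule proteins MPO and PRTN3, the surface marker CD33 and the integrin ITGAM. ITGAM is more typical of later stages of the lineage than of promyelocytes, so the count of 4 holds a weak marker of this stage. ELANE, AZU1 and CTSG, further granule proteases and their relative, were not listed, nor were CEBPE, CD38 and MYB. Of 22 genes chosen as markers of other cell types 6 were listed (27.3%, 10.7 to 50.2%). They were PECAM1, CD4, EPCAM and the keratins KRT8, KRT18 and KRT19. PECAM1 stood with CD14 in neutrophil degranulation and phagocytosis, so not every gene of this list is foreign to the neutrophil lineage. The T-cell CD3 chains, the B-cell marker MS4A1 and the haemoglobin gene HBB were not listed. Both intervals are wide and hold the 26.9% of all protein-coding genes. With so few genes per list, chosen with results known, the counts cannot decide on the cell type, and no test was made. The tables hold no levels, so the part of other cells in any listing was not tested.

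The symbols with the most similar terms differed by gene. Likeness was measured as the Jaccard index, the shared terms divided by the terms of either gene, among symbols that shared at least 3 terms. For CD14 the closest was ITGAM, with 4 shared terms of 8 (index 0.5), followed by TMED7-TICAM2 (0.333), C3 and TCIRG1 (0.273 each) and ATP6V0A1 (0.25). FCGR1A matched FCGR1B in all 4 terms (1), and the only other symbol was NCF1 (0.429). For CYBB the class I molecules HLA-B and HLA-C (0.25 each) and the chaperone CALR (0.136) were the only symbols that shared 3 terms. FCAR, with 2 terms, could have no such neighbour.

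For CXCR4 and GSDMD the closest symbols shared wide compartments. For CXCR4 they were FLII and PER1 (index 0.556 each), SMAD7 (0.545), CARD8 (0.5) and DCAF7 (0.455), of 1434 symbols that shared at least 3 terms with it. With terms of at most 500 background genes, none of these stayed among the closest 5, which became TRIOBP (0.5), HSPA5 (0.375), CDC42 (0.231), DNM2 (0.2) and EGFR (0.188). For GSDMD they were SERPINB10 (0.75), AMH and LTA4H (0.667 each), AMPD3 (0.6) and ACLY (0.571). LTA4H, the enzyme that makes leukotriene B4, shared all 4 of GSDMD's terms, as did AMH and ACLY. Since annotation sets these terms, the indices describe how the genes are annotated and not how their RNA was bound.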

How the data were processed

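RNA immunoprecipitation and sequencing was done in HL-60 cells, with 1 input and 1 IP library, from stranded mRNA libraries per the labels' protocols. The submitters' processing notes name hg38 as genome build. Which aligner and peak caller the authors used, and how the IgG part entered, is not given in the sources used here. Per the file headers, the GO and KEGG tables give the number of input entries and of background genes per term, a rich factor (a fold, the authors' ratio of shares), and the authors' p-value and corrected p-value. The third table pairs symbols with families, per the file headers, with no number. Depth per library is unknown.

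Entries were split into identifier and symbol with Python 3.11.15, and 95% Clopper-Pearson intervals came from SciPy 1.17.1. Counting of terms, identifiers and likeness was tested on simulated data. No test was run: the p-values printed are the authors'. Genes were matched by symbol, then by older symbols, to RefSeq (GRCh38.p14). The 6 genes, the 7 gene lists and the naming rule were chosen with earlier results of these data known. That rule took the 6 genes, the listed genes of each list, the 5 symbols of highest likeness sharing at least 3 terms, and per gene the terms with a corrected p under 0.05 and the 6 with the fewest background genes. Unlisted genes and further terms, such as cytoplasm for CXCR4, were named after their values were seen. Some genes of the lists are counted but not reported by name here. No sequence is shown, since the positions of peaks were not analysed here. Alternatives were terms under a corrected p of 0.05, terms of at most 500 background genes, terms without AMBRA1's identifier, matching by identifier, and each table alone.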

Additional observations from a re-analysis of the deposited data

How the results depend on the processing

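The alternatives were planned, except matching of the lists by gene identifier, which was chosen after seeing the data. With only terms under a corrected p of 0.05, the number of terms became 4 for CXCR4, 2 for GSDMD and 0 each for CD14, FCAR, FCGR1A and CYBB. With terms of at most 500 background genes it became 4 for CXCR4 and 2 for GSDMD and moved by no more than 1.5 times for the other genes. Leaving out terms with AMBRA1's identifier took CXCR4 from 9 to 6 terms and GSDMD from 4 to 3, and left the other genes unchanged. The terms left out were cytosol, cytoplasm and ubiquitin protein ligase binding. Matching by identifier changed none of the 6 counts. With each identifier counted once, the share of listed genes left the interval of the share by entries in 5 of 22 terms: nucleoplasm (50.6%), cytosol (44.3%), nucleus (42.1%), cytoplasm (39.4%) and ubiquitin protein ligase binding (48.3%). In the family table alone, the lists held 0 genes of lipopolysaccharide sensing, 1 of Fc receptors, 0 of chemoattractant receptors and 0 of NADPH oxidases. They held 2 of gasdermins and inflammasomes, 1 of the promyelocyte list (ITGAM) and 0 markers of other cell types. Matching symbols as written left out GSDME, and matching by identifier added TICAM2. Of the 5 symbols most like CD14, 3 were kept with the narrower terms, and 0 of 5 for CXCR4; for GSDMD no symbol shared 3 such terms, so that 0 of 5 were kept. No paired analysis was possible because each group held 1 library and the tables hold no value per library. Depth is unknown and there was no replicate check.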

Other observations

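Several other entries of the terms that name the 6 genes also shared an identifier. In Phagosome, 10 identifiers carried more than 1 symbol. The actins ACTB and ACTG1 were both entered under the identifier 71, THBS1 was entered with 2 clone-named symbols under 7057, and the tubulins TUBA1B, TUBA1C, TUBA8 and TUBB4B each stood beside a clone-named symbol. None of the 22 terms was free of a repeated identifier. In Acute myeloid leukemia, which names CD14 and FCGR1A, the kinase MTOR and its antisense transcript MTOR-AS1 were both entered under the identifier 2475. What such shared identifiers mean for the authors' counts of other terms was not tested.

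Of the 21 symbols in both neutrophil degranulation and Phagosome, some were paired with all 4 families. They were FCAR, the integrin chain ITGAM, the dynein heavy chain DYNC1H1, the proton pump subunit TCIRG1 and the tubulin TUBB2A. Over all listed symbols 14.3% were so paired. That base includes symbols of the family table alone, which none of the 21 can be, so the bases are unlike. The others, TLR2 and MPO among them, were in no family.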
